A study of Homo sapiens with 6 samples.

Results

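The 7 noncoding RNA rows described here are RNA45S5, RN7SK, RN7SL1, RN7SL2, RPPH1, MALAT1 and NEAT1. They were taken by symbol from a count table of 29744 symbols, as transcripts that total RNA libraries are known to hold in quantity. Earlier results of these data were known when they were chosen. Together they took 11.7% to 15.1% of the counts of each library. RNA45S5 alone took 8.88% to 10.65%, and it held more counts than any other symbol in all 6 libraries. NEAT1 did not bear out the name of an abundant RNA: it ranked between 374 and 1123 by count, where the other 6 rows ranked between 1 and 28.

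The study compared the human gastric tumour cell line MKN45, labelled sensitive, with a pair of lines derived from it. HER2R is the line labelled resistant to HER2-TCB (cell line MKN45-HER2), and CEAR is the line labelled resistant to CEACAM5-TCB (cell line MKN45-CEAR). A TCB, or T cell bispecific antibody, binds a tumour surface protein with one arm and a T cell with the other. All 3 lines were grown in the same serum-containing medium, and no treatment was given before harvest. Each line has 2 libraries, numbered 1 and 2 in the labels, made with a stranded total RNA kit that includes a ribosomal RNA depletion step (Ribo-Zero Plus). The labels are silent on whether a line's libraries are separate cultures and on whether a resistant line is 1 clone, so each p-value speaks for the spread between these libraries alone.

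The libraries held 39657353 to 57964246 counts. Of the 9 gastric epithelial markers listed, all 9 had counts. Their summed level was 8882 to 17675 CPM (counts per 1e6 counts, in the marker sums without TMM scaling and elsewhere TMM-scaled). Of these, CEACAM5 was called lower in CEAR than in MKN45 (9.10 against 1724 CPM, adjusted p = 0.0156, edgeR), and EPCAM and CEACAM5 were called higher in HER2R than in CEAR. None were called in HER2R against MKN45. With a term for library number in the fit, 1 rose and 2 fell in HER2R against MKN45, and 3 fell in CEAR against MKN45. In HER2R against CEAR 5 rose and 1 fell with that term. Of all tested genes, 9.74% were called in HER2R against MKN45, 6.19% in CEAR against MKN45 and 14.1% in HER2R against CEAR. With that term the shares were 33.7%, 25.8% and 38.2%, and the marker counts are to be read beside them. Blood cell and stroma markers summed to 1.04 to 2.04 CPM in MKN45 and CEAR and to 4.199 to 8.02 CPM in HER2R. Most of the HER2R sum was COL1A1 (7.44 and 3.55 CPM, TMM-scaled). COL1A1, the only one of these markers that passed the count filter, had log2 fold changes of 2.22 in HER2R against MKN45 and 1.98 against CEAR. Both were called with the library number term and not without it. Of the 17 such markers in the table, 6 were at 0 in all libraries, and the part of these markers in the results was not tested. In RNA from whole cultures, fewer cells of a kind and less RNA per cell cannot be told apart.

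These RNAs belong to the basic machinery of the cell. The 45S precursor is transcribed by RNA polymerase I and cut into the ribosomal RNAs of both ribosomal subunits. RNA polymerase III makes 7SK RNA (RN7SK), which holds the elongation kinase P-TEFb in an inactive particle, 7SL RNA (RN7SL1 and RN7SL2), the scaffold of the signal recognition particle that brings nascent secreted proteins to the endoplasmic reticulum, and the RNA subunit of RNase P (RPPH1), which trims transfer RNA precursors. MALAT1 and NEAT1 are long RNA polymerase II transcripts of the nucleus: MALAT1 gathers in nuclear speckles, and NEAT1 is the scaffold of paraspeckles.

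RN7SL1 and RN7SL2 are near-identical copies of 7SL RNA with separate rows in the table. Reads from the parts they share fit both genes, so the split of counts between the rows depends on how the counting treated such reads, which is not given in the sources used here. GENCODE 29 names 680 genes that start with RN7SL, and 2 of them, these 2, are symbols of the table.

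The first 120 bases of RN7SK, on the plus strand at chr6:52995621-52995740 (GENCODE 29, GRCh38), are printed because they hold the GATC repeats known from the region bound by HEXIM1, the protein of the 7SK particle that inhibits P-TEFb and whose mRNA is among the results below. Capitals mark GATC.
RN7SK: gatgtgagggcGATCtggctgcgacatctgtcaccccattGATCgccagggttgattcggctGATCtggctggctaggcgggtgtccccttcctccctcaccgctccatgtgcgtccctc
GATC, which reads the same on both strands, was found 3 times, at positions 12, 41 and 63. Of 200764 GENCODE transcripts of at least this length, 26.5% held GATC at least once in their first 120 bases, and 0.469% held it 3 or more times. The 293 genes that GENCODE names as RN7SK pseudogenes (RN7SKP) have no row in the table.

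Among the other rows with a GENCODE position, RPPH1 lies on chromosome 14 (20343075 to 20343407, minus strand). NEAT1 (65422774 to 65445540) and MALAT1 (65497688 to 65506516) lie on the plus strand of chromosome 11. RN7SL1 and RN7SL2 have positions on chromosome 14 too. NEAT1 ends 52147 bases before MALAT1 starts. RN7SL1 lies opposite the gene RPS29, and RPPH1 starts 175 bases from PARP2, which is on the other strand. The kit is stranded, but whether the counting used the strand is not given. RNA45S5 has no GENCODE position. RefSeq (GRCh38.p14) lists the symbol as a synonym of 2 genes of the ribosomal DNA arrays, 13373 and 13357 bases long.

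RNA45S5, the ribosomal RNA precursor row, took 9.12% and 10.65% of counts in MKN45 libraries 1 and 2. It took 9.54% and 9.27% in HER2R. In CEAR it took 8.88% and 9.79%. The values of the 3 lines overlapped, and the means were 9.89% ± 1.08 in MKN45, 9.40% ± 0.189 in HER2R and 9.33% ± 0.644 in CEAR (SD, n = 2). These are levels after a depletion step aimed at ribosomal RNA. Of 12 other ribosomal RNA symbols that were looked up, the 6 found in the table, RNA18S5 and RNA28S5 among them, were at 0 in all libraries, and whether reads of the mature ribosomal RNAs were counted under RNA45S5 was not tested.

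RN7SK took 0.763% and 0.932% of counts in the MKN45 libraries. HER2R held 1.20% and 0.770%, and CEAR 0.954% and 1.20%. The highest values, one from each resistant line, were both 1.20%, and they came from HER2R library 1 and CEAR library 2. HER2R library 2 lay close to the lower MKN45 library.

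RN7SL1 took 0.523% and 1.01% of counts in the MKN45 libraries, 0.600% and 0.492% in those of HER2R, and 0.580% and 1.15% in those of CEAR. RN7SL2 took 0.637% and 1.27% in MKN45 libraries 1 and 2. For HER2R the values were 0.466% and 0.418%, and for CEAR 0.641% and 1.43%. Library 2 was near 1% or above for both rows in MKN45 and CEAR, while both HER2R libraries lay at or below 0.600%. Only for RN7SL2 did both HER2R libraries fall below every library of the other lines.

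RPPH1 took 0.472% and 0.858% of the MKN45 libraries, 0.726% and 0.618% of the HER2R libraries, and 0.523% and 0.772% of the CEAR libraries. The HER2R libraries lay between the 2 libraries of each other line. Per kilobase of transcript, the median level over the 6 libraries was 28171 CPM for RN7SK, 21110 CPM for RN7SL2, 20541 CPM for RPPH1 and 19417 CPM for RN7SL1. On the same scale it was 7147 CPM for RNA45S5, 437 CPM for MALAT1 and 9.88 CPM for NEAT1. These values rest on full annotated lengths, such as 13357 bases for RNA45S5 and 22767 bases for NEAT1. How reads were spread along these lengths was not tested. The ranges of RN7SK, RN7SL1, RN7SL2 and RPPH1 overlapped, so the order among these 4 is not beyond their spread.

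MALAT1 took 0.175% and 0.379% of the MKN45 libraries, 0.432% and 0.380% of the HER2R libraries, and 0.262% and 0.552% of the CEAR libraries. MKN45 library 1 was the lowest and CEAR library 2 the highest. NEAT1 took 0.0167% and 0.0241% of the MKN45 libraries, 0.0339% and 0.0225% of the HER2R libraries, and 0.0177% and 0.0223% of the CEAR libraries. HER2R library 1 was the highest for NEAT1, and the 5 other libraries lay between 0.0167% and 0.0241%. Counting error was small beside these differences: for NEAT1, the row with the fewest counts (7021 to 13429), the 95% Wilson interval in MKN45 library 1 ran from 0.0163% to 0.0170%. These intervals cover counting error only.

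**Figure D1:**
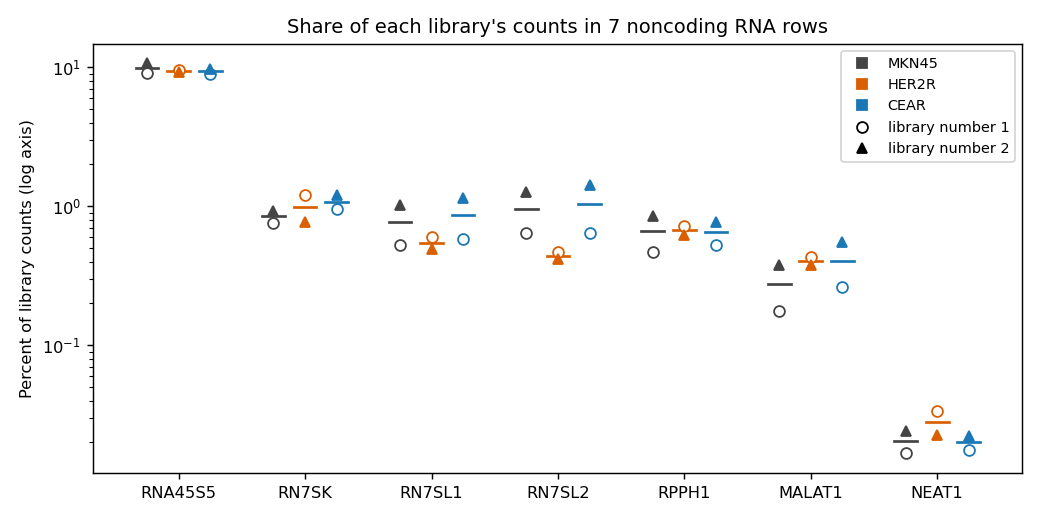
Percent of library counts in each of the 7 rows, on a log axis, by line (colour) and library number (symbol), with the mean of the 2 libraries as a short line. RNA45S5 sits between 8.88% and 10.65% in all libraries, 5 rows lie between 0.175% and 1.43%, and NEAT1 lies between 0.0167% and 0.0339%.

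None of the 7 rows differed between HER2R and MKN45 in the quasi-likelihood test of edgeR, adjusted over 14958 genes by the Benjamini-Hochberg method (0 of 7 called at an adjusted p of 0.05, and 0 of 7 at an unadjusted p under 0.05). In the same comparison 9.74% of all tested genes were called, and 0 of 7 is close to that share. The median log2 fold change of the 7 rows was 0.02, against -0.02 over all tested genes. RN7SL2 had the lowest value, -1.10 on the log2 scale (SE 0.552, adjusted p = 0.246, edgeR), from 9648 ± 4388 CPM in MKN45 to 4501 ± 292 CPM in HER2R (SD, n = 2). Its libraries did not overlap, and DESeq2 placed it past the threshold (log2 fold change -1.09, adjusted p = 0.0476), the one alternative of 17 that called any of the rows here. DESeq2 called 18.9% of all genes in this comparison, so 1 of 7 is close to its own background. Over the 17 alternatives the RN7SL2 value ran from -1.50 to -0.55, and within numbers 1 and 2 it was -0.48 and -1.57. With a term for library number it was -0.97 (adjusted p = 0.123, edgeR), in a fit that called 33.7% of all genes. RN7SL1 had a log2 fold change of -0.49 (SE 0.509) and its libraries overlapped. The rows without overlap were 2 of 7, RN7SL2 and MALAT1. With 2 libraries against 2, shuffled libraries separate at a rate of 0.333, which is not the share over all genes. That share was not counted, so nothing is read from the 2 of 7.

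MALAT1 was higher in both HER2R libraries than in both MKN45 libraries, at 4360 and 3901 CPM against 1798 and 3814 CPM. The margin between the nearest pair was small, and the log2 fold change of 0.56 (SE 0.494) did not pass the test (adjusted p = 0.506, edgeR). Between libraries of number 1 the MALAT1 difference was 1.28, and between libraries of number 2 it was 0.03. NEAT1 had a log2 fold change of 0.47 (SE 0.259), made of 1.00 between the number 1 libraries and -0.07 between the number 2 libraries. RN7SK, RPPH1 and RNA45S5 had log2 fold changes of 0.22, 0.02 and -0.07. For RN7SK and RPPH1 the 2 within-number values also had opposite signs, 0.63 and -0.24 for RN7SK and 0.60 and -0.44 for RPPH1. In all, 2 of the 7 rows, RN7SL2 and MALAT1, had the same sign within both numbers.

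Between CEAR and MKN45, 0 of 7 rows were called by edgeR and 0 of 7 had an unadjusted p under 0.05, where 6.19% of all tested genes were called. The libraries of CEAR and MKN45 overlapped for every one of the 7 rows. Log2 fold changes ran from -0.15 for RNA45S5 to 0.49 for MALAT1 (SE 0.493), with a median of 0.06 against 0.00 over all genes. RN7SL1 and RN7SL2 stood at 0.11 and 0.06. Within library numbers 5 of 7 rows had the same sign in both numbers, MALAT1 at 0.48 and 0.50 among them. No alternative of the 17 run called a row in this comparison.

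Between HER2R and CEAR, 0 of 7 rows were called by edgeR and 0 of 7 had an unadjusted p under 0.05, where 14.1% of all tested genes were called. RN7SL2 again had the lowest value, at -1.16 (SE 0.553, adjusted p = 0.204, edgeR), and NEAT1 the highest, at 0.57 (SE 0.260, adjusted p = 0.190). For both, 2 of 7 rows, the 2 HER2R libraries did not overlap the 2 CEAR libraries. Shuffled libraries separate at a rate of 0.333, which is not the share over all genes. That share was not counted, so nothing is read from the 2 of 7. DESeq2 placed RN7SL2 past the threshold (-1.15, adjusted p = 0.0300), in a fit that called 22.9% of all genes. Over the 17 alternatives the RN7SL2 value ran from -1.64 to -0.45, and within numbers 1 and 2 it was -0.38 and -1.70. NEAT1 ran from 0.25 to 0.82, with 1.02 and 0.08 within numbers. With a term for library number RN7SL2 stood at -1.01 (adjusted p = 0.106, edgeR) and NEAT1 at 0.58 (adjusted p = 0.0740, edgeR). With that term 0 of 7 rows were called, against 38.2% of all genes. An unadjusted p under 0.05 was held by 1 of 7, and the share of all genes at that threshold was not counted. This comparison and the one with MKN45 share the HER2R libraries, so the similar RN7SL2 values are not independent. The median log2 fold change of the 7 rows was 0.06, against 0 over all genes.

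**Figure D2:**
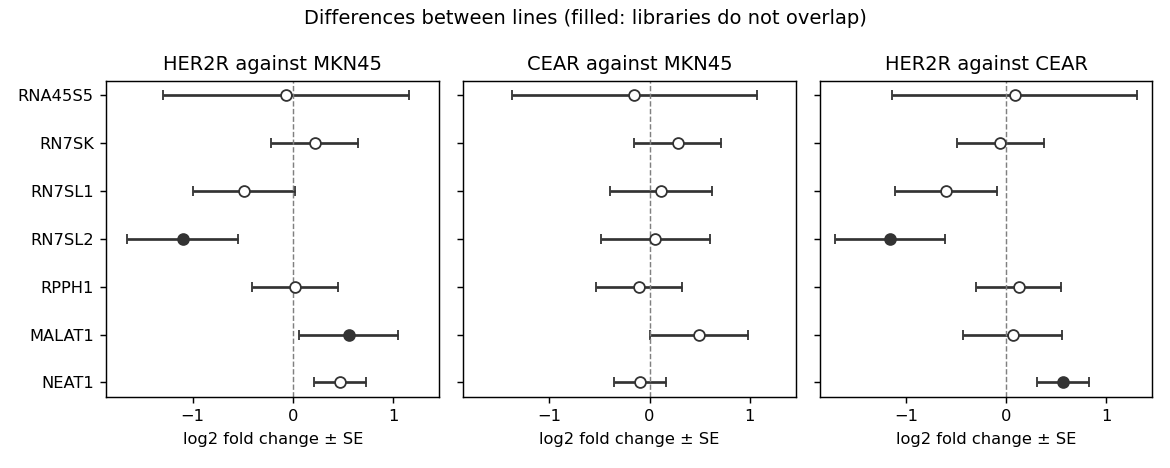
Log2 fold change with its standard error for the 7 rows in the 3 line comparisons (edgeR, 2 libraries a line). Filled points are rows whose libraries do not overlap, which shuffled libraries reach at a rate of 0.333; the share over all genes was not counted. RN7SL2 lies at -1.10 and -1.16 in the comparisons with HER2R, and the bar of RNA45S5 is the widest.

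The width of the RNA45S5 bar does not come from its own libraries. Its fitted SE was 1.23, which is 11.5 times the pooled spread between its 2 libraries of a line (SD 0.107 on the log2 scale). The ratio was 0.757 to 1.39 for the other 6 rows. In this fit the prior for the spread follows abundance. With a prior that does not, the RNA45S5 SE in HER2R against MKN45 was 0.157 (adjusted p = 0.813, edgeR). With the edgeR legacy method it was 0.208 (adjusted p = 0.861). The main test therefore says little of RNA45S5, and its percentages above are the better description.

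A quantity that does not depend on the scaling of libraries is the split of the 7SL counts between their 2 rows. RN7SL1 made up 45.1% and 44.4% of the pair in MKN45 and 47.5% and 44.7% in CEAR. In HER2R it made up 56.3% and 54.1%. RN7SL1 was thus the larger row in both HER2R libraries and the smaller one in the 4 others, and the widest of the 95% Wilson intervals was 53.9% to 54.2%, in HER2R library 2. The log2 ratio of RN7SL1 over RN7SL2 was 0.60 higher in HER2R than in MKN45, and 0.65 and 0.56 higher within numbers 1 and 2. Against CEAR it was 0.53 higher, with 0.51 and 0.54 within numbers. These gaps exceeded the spread between libraries of a line (SD of the log2 ratio 0.0253 in MKN45, 0.0929 in HER2R and 0.118 in CEAR). With 2 libraries against 2 the exact two-sided permutation test cannot go below 0.333, which both comparisons gave (0.5 after adjustment over 3 comparisons). CEAR and MKN45 differed by 0.08 (exact permutation p = 0.667).

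**Figure D3:**
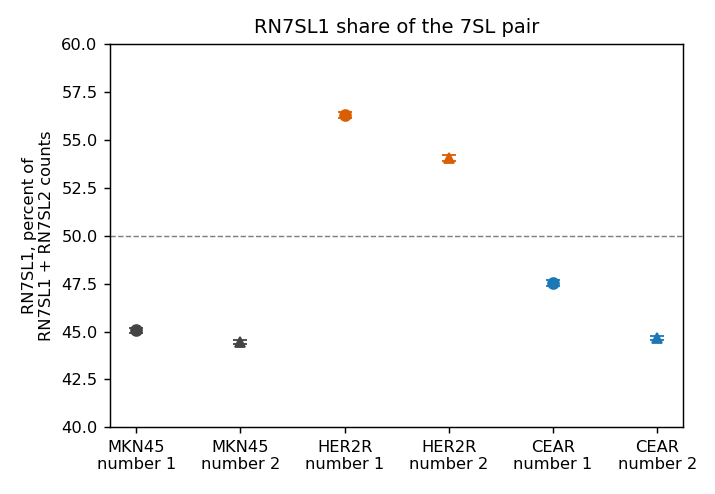
RN7SL1 counts as a percent of RN7SL1 and RN7SL2 counts in each library, with 95% Wilson intervals; the axis runs from 40% to 60% and the dashed line is an even split. The 2 HER2R libraries sit at 54.1% and 56.3%, and the 4 others between 44.4% and 47.5%.

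The 2 libraries of a line differed in a way that the rows shared. In MKN45 all 7 rows were higher in library 2 than in library 1, and the same held in CEAR. In HER2R 0 of 7 were. The sum of the 7 rows went from 11.7% to 15.1% in MKN45 and from 11.9% to 14.9% in CEAR, and from 13.0% to 12.0% in HER2R. Without RNA45S5 the sum of the other 6 rows went from 2.59% to 4.48% in MKN45, from 2.98% to 5.13% in CEAR and from 3.46% to 2.70% in HER2R. Over the 3 lines the exact sign-flip permutation p for the summed difference was 0.5, where the smallest this design allows is 0.25. Marker genes moved with the number too, in a comparison that called 16.7% of all tested genes. CEACAM5 (log2 difference 1.55), KRT19 (0.70) and ELF3 (0.63), 3 of the 9 epithelial markers, were called higher in number 2 by edgeR. They were higher in all 3 lines. COL1A1 was called lower (-1.04, adjusted p = 0.0245, edgeR). The part of these markers in the differences of the 7 rows was not tested.

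By row, MALAT1 had a log2 difference, number 2 minus number 1, of 1.09 in MKN45, 1.11 in CEAR and -0.16 in HER2R. RN7SL2 differed by 0.96, 1.19 and -0.13 in MKN45, CEAR and HER2R, and RN7SL1 by 0.93, 1.02 and -0.26. RPPH1 differed by 0.83, 0.59 and -0.21. NEAT1 differed by 0.50, 0.37 and -0.56, and RN7SK by 0.26, 0.37 and -0.62. RNA45S5 had the smallest differences, 0.19, 0.18 and -0.02. In percent of counts, library 2 held 1.94 to 2.23 times as much of MALAT1 and the 7SL rows as library 1 in MKN45 and CEAR, while in HER2R the lowest values were those of RN7SK and NEAT1.

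**Figure D4:**
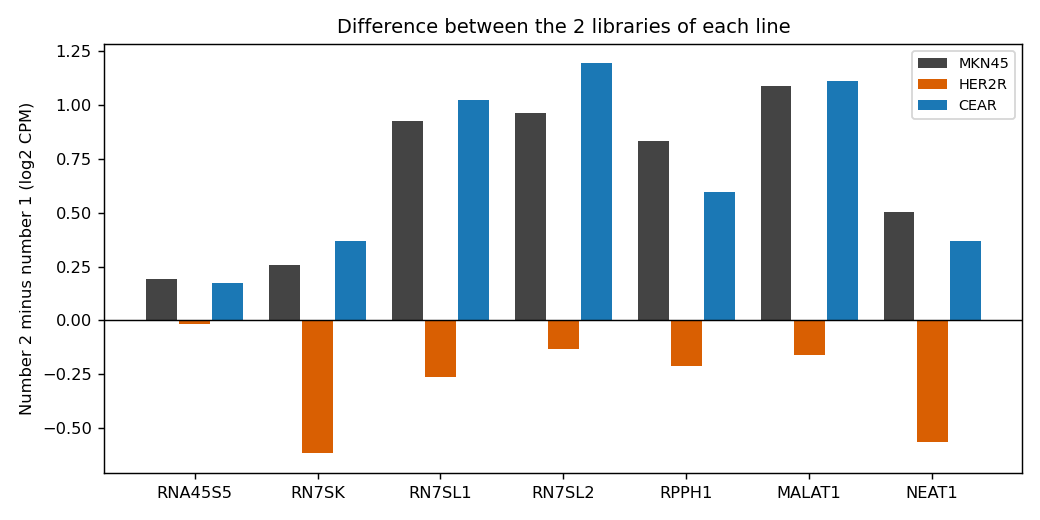
Library number 2 minus number 1 in log2 CPM for the 7 rows, 1 bar for each line and row. All bars of MKN45 and CEAR are above 0 (0.18 to 1.19), and all bars of HER2R are below 0 (-0.62 to -0.02).

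In a fit with terms for line and number, 0 of 7 rows were called for number 2 against number 1 (edgeR), and 1 of 7, MALAT1, had an unadjusted p under 0.05 (log2 difference 0.68, SE 0.289, adjusted p = 0.142). The background was 16.7% of all tested genes called, and the median log2 difference was 0.41 over the 7 rows against 0.02 over all genes. Without HER2R library 1, which leaves the number difference to MKN45 and CEAR, 4 of 7 rows were called: MALAT1 (1.09, adjusted p = 0.00912), NEAT1 (0.43, adjusted p = 0.0215), RN7SL2 (1.07, adjusted p = 0.0349) and RN7SL1 (0.97, adjusted p = 0.0368). That fit called 17.6% of all genes tested in it. Leaving out HER2R library 2 instead rests on the same MKN45 and CEAR libraries. Its near-equal values (MALAT1 1.09, RN7SL2 1.07) are therefore not a second result. Both fits set aside the line in which the rows had been seen to be lower in number 2.

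The difference of each line's number effect from that of the other 2 lines was tested for all 3 lines, in a fit chosen after the opposite direction in HER2R had been seen, with 1 residual degree of freedom. For HER2R 0 of 7 rows were called, where 0.147% of all genes were. An unadjusted p under 0.05 was held by 4 of 7, and the share of all genes at that threshold was not counted. NEAT1 came nearest (-0.999 on the log2 scale, SE 0.163, adjusted p = 0.104, edgeR). MALAT1 stood at -1.26 (SE 0.330, adjusted p = 0.326), RN7SL1 at -1.24 (SE 0.447) and RN7SL2 at -1.21 (SE 0.474). DESeq2 called 6 of 7, all but RNA45S5, and 0.274% of all genes. For MKN45 and CEAR 0 of 7 rows were called, with 0.214% and 0.0802% of all genes called, and 0 of 7 rows had an unadjusted p under 0.05.

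Other short structured RNAs, such as small nuclear, small nucleolar, Cajal body and Y RNAs, were listed for comparison, and 25 of 39 were tested. Between numbers, 9 were higher and 2 lower in number 2 by edgeR, where 16.7% of all tested genes were called. Their median log2 difference was 0.59. RNU2-2P, a U2 spliceosomal RNA, had 70 and 274 counts in the MKN45 libraries, 140 and 173 in those of HER2R, and 102 and 407 in those of CEAR (log2 difference 1.49, adjusted p = 0.0238, edgeR). SCARNA6, a Cajal body RNA, had 108 and 252, 72 and 62, and 84 and 398 (1.38, adjusted p = 0.0377). Among those with counts in both libraries of a line, 22 of 24 were higher in number 2 in MKN45 (median 1.03), 22 of 23 in CEAR (median 0.90) and 11 of 23 in HER2R (median -0.005). Some rest on few counts, such as RNU12 (2 to 18 a library) and RNU5A-1 (2 to 14), so their values are uncertain. Over all genes with counts the medians were 0.00, 0.01 and 0.01, and 50.1%, 50.7% and 52.2% were higher in number 2 in MKN45, CEAR and HER2R. In MKN45 and CEAR most short RNAs were thus higher in number 2, while in HER2R they were about evenly divided and the 7 rows were all lower; the short RNAs and the 7 rows were not tested against each other.

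**Figure D5:**
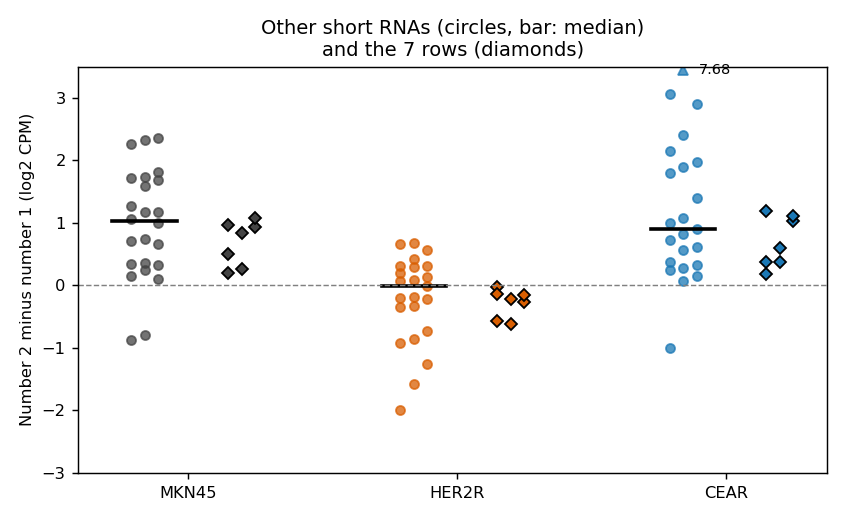
Library number 2 minus number 1 in log2 CPM for the other short RNAs with counts in both libraries of a line (circles, bar for the median) and for the 7 rows (diamonds); 1 value of 7.68 in CEAR, SNORD3C, is drawn at the upper edge. The medians of the short RNAs are 1.03 in MKN45, -0.005 in HER2R and 0.90 in CEAR. Some circles rest on few counts.

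The protein partners of these RNAs were listed by particle. Of all tested genes, 9.74% were called in HER2R against MKN45, 6.19% in CEAR against MKN45, 14.1% in HER2R against CEAR and 16.7% between numbers. With the library number term the shares of the 3 line comparisons were 33.7%, 25.8% and 38.2%. The counts of called genes in all lists below are to be read beside these shares. For 7SK, 1 of 10 tested genes rose in HER2R against MKN45 and none fell (median 0.17), and with a term for library number 2 rose. HEXIM1, the P-TEFb inhibitor of the 7SK particle, was at 56.5 and 53.7 CPM in MKN45, 129.6 and 129.9 CPM in HER2R and 66.2 and 43.1 CPM in CEAR. Both HER2R libraries lay above all others. Its log2 fold change was 1.24 against MKN45 (SE 0.207, adjusted p = 0.0202, edgeR) and 1.25 against CEAR (adjusted p = 0.0178), where 1 list gene rose and 1 fell with the library number term. Against MKN45 the call was lost when any 1 of the 4 compared libraries was left out, with log2 fold changes of 1.19 to 1.28 over all alternatives and an adjusted p of up to 0.117. Against CEAR it was lost without either HER2R library or without CEAR library 2 (adjusted p up to 0.102). In CEAR against MKN45 0 of 10 were called, and between numbers AFF4, a scaffold of the super elongation complex, fell (-0.40, adjusted p = 0.0146).

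For the signal recognition particle and its receptor, 0 of 8 genes were called in any line comparison or between numbers, with medians of 0.08 in HER2R and -0.14 in CEAR against MKN45. With the library number term 1 fell in HER2R against MKN45, and 3 rose and 1 fell in HER2R against CEAR. Among the RNase P and RNase MRP proteins 1 of 11 fell in HER2R against MKN45, namely POP5, a subunit of both enzymes, at 30.3 and 32.1 CPM in MKN45, 16.6 and 16.2 CPM in HER2R and 32.4 and 33.1 CPM in CEAR (log2 fold change -0.93, SE 0.139, adjusted p = 0.0145, edgeR). It was also lower than in CEAR (-0.998, adjusted p = 0.0120). Both calls were lost when any 1 compared library was left out (adjusted p up to 0.110 and 0.0908). With the library number term 1 rose and 2 fell in this list against MKN45, and 2 rose and 4 fell against CEAR. In CEAR against MKN45 0 of 11 were called, or 1 rose with that term. Between numbers RPP21 (0.40) and RPP40 (0.51) were higher in number 2 and none were lower.

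Of RNA polymerase III and its factors, which make the 7SK, 7SL and RNase P RNAs, 1 of 30 rose in HER2R against MKN45, GTF3C2 (0.59, SE 0.128, adjusted p = 0.0382, edgeR). With the library number term 5 rose and 6 fell, close to the share of all genes called there (33.7%). In CEAR against MKN45 POLR3K rose (0.93, adjusted p = 0.0367) and SNAPC2 fell (-1.10, adjusted p = 0.0497), or 2 rose and 3 fell with that term. In HER2R against CEAR 2 rose, GTF3C2 (0.77) and POLR3G (1.04), and 3 fell, POLR3K (-1.19), GTF3C6 (-1.19) and BRF1 (-0.68), or 5 rose and 4 fell with the number term. Between numbers 5 of 30 were lower in number 2 and none were higher, which is close to the share of all genes called there (16.7%). GTF3C1 was lower by the most (-0.78, SE 0.0816, adjusted p = 0.00149, edgeR), followed by SNAPC4 (-0.53) and POLR3E (-0.50).

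Of RNA polymerase I and its factors, which serve the 45S precursor, 2 of 13 rose and 1 fell in HER2R against MKN45. TAF1D, a subunit of the promoter selectivity factor, was at 69.1 and 63.6 CPM in MKN45, 177 and 146 CPM in HER2R and 103 and 100 CPM in CEAR (log2 fold change 1.28, SE 0.142, adjusted p = 0.00600, edgeR). TAF1B of the same factor rose (1.11) and RRN3, an initiation factor, fell (-0.62). With the library number term 4 rose and 2 fell. In CEAR against MKN45 TAF1C rose (1.15), or 3 rose and 1 fell with that term, and in HER2R against CEAR 2 rose and 2 fell. Between numbers 1 of 13, POLR1A, was lower in number 2 (-0.35). Of the ribosomal RNA processing genes, 1 of 26 rose (WDR43, 0.69) and 1 fell (DIS3, -0.87) in HER2R against MKN45, or 3 and 6 with that term. In CEAR against MKN45 0 of 26 were called, or 2 rose and 3 fell. In HER2R against CEAR 1 rose (WDR43, 0.66) and 1 fell (CIRH1A, -0.60), or 6 and 4 with the term. Between numbers RRP9 (0.55) and DKC1 (0.29) were higher, and UTP20 (-0.62), NOP2 (-0.55) and HEATR1 (-0.38) lower.

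Of the paraspeckle proteins, partners of NEAT1, 1 of 15 fell in HER2R against MKN45, NUDT21, a subunit of the cleavage factor that chooses polyadenylation sites (-0.66, SE 0.133, adjusted p = 0.0322, edgeR). It was also lower than in CEAR (-0.95). With the library number term 2 rose and 1 fell against each of the other lines. Between numbers SMARCA4 was lower in number 2 (-0.31). Of the nuclear speckle proteins, where MALAT1 gathers, 0 of 14 were called in HER2R or CEAR against MKN45, and RNPS1 was lower in HER2R than in CEAR (-0.95). With that term 4 rose and 2 fell in HER2R and 2 rose and 1 fell in CEAR against MKN45, and 3 rose and 3 fell in HER2R against CEAR. Between numbers 4 of 14 were lower in number 2, with SRRM2 (-0.42), PNN (-0.42) and SON (-0.31) among them, each lower in number 2 in all 3 lines.

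Among the other noncoding RNAs, TERC, the RNA template of telomerase, was at 19.4 and 24.2 CPM in MKN45, 117 and 122 CPM in HER2R and 70.7 and 104 CPM in CEAR. It was called in both resistant lines, with log2 fold changes of 2.46 (SE 0.223, adjusted p = 0.00366, edgeR) and 2.01 (SE 0.220, adjusted p = 0.00755) and it was not called in HER2R against CEAR. RNY1, a Y RNA, was the other short RNA that rose in HER2R (13.4 and 5.61 CPM against 1.56 and 1.84 CPM, log2 fold change 2.49, adjusted p = 0.0390, edgeR). This call was lost in 7 of 17 alternatives: without any 1 of these libraries, without the count filter, with limma-voom and with a prior not following abundance. Of the short RNAs 2 of 25 rose in HER2R (median 0.13) and 1 of 25 in CEAR (median 0.36), or 4 and 5 with the library number term, with 1 fallen in CEAR. Of 24 other long noncoding RNAs 0 were called against MKN45 in HER2R (median 0.18) or CEAR (median -0.14), or 6 rose and 1 fell and 2 rose and 1 fell with that term. In HER2R against CEAR GAS5 (0.83) and SNHG16 (0.88), hosts of small nucleolar RNAs, were higher, or 8 were higher and 1 lower with the term. No short RNA was called there (0 of 25), or 3 were higher and 3 lower with it.

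Of the 11 genes of these lists named for HER2R against MKN45, TERC and TAF1D kept their call under all 17 alternatives, 3 lost it only when a library was left out, and 6 lost it under some other alternative too (adjusted p up to 0.207). Of the 4 named for CEAR against MKN45 TERC kept its call, with an adjusted p of up to 0.215 for the others. In HER2R against CEAR 0 of 17 kept it (adjusted p up to 0.203), each losing it without at least 1 of the compared libraries. Between numbers 9 of 24 kept it, GTF3C1, NOP2 and UTP20 among them (adjusted p up to 0.781 for the others).

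The genes whose log2 CPM followed each row most closely over the 6 libraries, of 10860 tested genes at a mean of at least 5 CPM, are given as a description. They were LTBP4 (Pearson r 0.986) and TRIQK (0.983) for RNA45S5, and SLC39A13 (0.982) and SPATA20 (0.981) for RN7SK. For RN7SL1 they were SLC35B3 (0.969) and LINC01184 (0.967), and for RN7SL2 CST3 (0.995) and IQCK (0.987). BBS1 (0.996) and NOXA1 (0.991) came nearest to RPPH1. IFT43 (0.996) and SHROOM1 (0.986) did so for MALAT1, and ATP2B4 (0.984) and ADAM8 (0.963) for NEAT1. All points share the same 6 libraries and their scaling. Among the 7 rows themselves the highest r was 0.938, between RN7SL1 and RN7SL2, and the lowest -0.15, between RN7SL2 and NEAT1.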

How the data were processed

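Total RNA libraries of 3 lines, 2 a line, were compared. Gene counts were deposited by the authors as 1 table of whole numbers; per the submitters' processing notes the build was GRCh38 and limma was used, while no aligner, counter or annotation is named in the sources used here. RNA was taken up with a column kit, per the labels' protocols. The table had 0 columns without a sample and 0 rows that name no gene.

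Percentages are of the total over all 29744 symbols (39657353 to 57964246 counts a library). In R 4.3.3, edgeR 4.0.16 was run with TMM scaling, filterByExpr by line (14786 symbols removed, 14958 tested, all 7 rows among them), glmQLFit and glmQLFTest with all 6 libraries in 1 fit (3 residual degrees of freedom, prior df median 3.51), and Benjamini-Hochberg adjustment over all tested genes at 0.05. The number comparison added the library number. CPM are TMM-scaled. Alternatives used DESeq2 1.42.0 and limma 3.58.1 among others; the scripts were tested on simulated data, in which the share of false calls exceeded the nominal level with edgeR, limma-voom and DESeq2 alike, so calls near the threshold are uncertain. Libraries of a line differed beyond counting noise (chi-square per degree of freedom 62.8 to 132.5).

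Library numbers come from the labels. The number 2 minus number 1 differences over 14958 genes correlated at 0.447, 0.629 and 0.466 between lines (log2 of CPM plus 0.5). The numbers were therefore taken to pair the libraries, but the main tests between lines carry no term for the number. Counts with the number as a block are given where they differ. That block called 33.7% of genes in HER2R against MKN45, 25.8% in CEAR against MKN45 and 38.2% in HER2R against CEAR.

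The 7 rows and 13 gene lists were chosen with earlier results of these data known. Of 236 listed symbols 212 matched directly, 7 by an older name and 17 did not match. Genes were named by rule: the 7 rows; up to 3 called genes per list, comparison and direction with the largest change; and the 2 genes of at least 5 CPM most correlated with each row. Positions and sequences are from GENCODE 29 and RefSeq GRCh38.p14. The sequences of RN7SL1 and RN7SL2 are not reported here.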

Additional observations from a re-analysis of the deposited data

How the results depend on the processing

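With 2 libraries a line, small differences of the 7 rows cannot be told from library spread, and the counts of calls rest on a shared estimate of the spread; counting depth is no limit for these rows. DESeq2 called 1 row in HER2R against MKN45 and 1 in HER2R against CEAR, RN7SL2 in both, and 6 for the number difference of HER2R against the other lines. All other alternatives gave 0 called rows for these 3 results, as did 17 of 17 for CEAR against MKN45; the cause was not tested. With the replicate block 0 of 7 rows were called in each line comparison, and it changed no row's call. For number 2 against number 1, 13 of 15 alternatives gave 0, and leaving out 1 library gave 0 to 4 called rows, the 4 being without HER2R replicate 1 or 2; both alternatives leave fewer samples. The summed percent without RNA45S5 in sum and total was 3.93 in MKN45, 3.40 in HER2R and 4.48 in CEAR.

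None of the log2 differences that changed sign was called with all libraries. With library size alone MALAT1 in HER2R against CEAR was -0.00399, and RN7SK between numbers was -0.0032, with -0.00136 without the count filter and -0.00232 with limma-voom. Leaving out 1 library gave, for HER2R against MKN45, -0.12 to 0.49 for RN7SK, -0.87 to 0.045 for RN7SL1, -0.16 to 0.026 for RNA45S5 and -0.33 to 0.49 for RPPH1. For CEAR against MKN45 it gave -0.16 to 1.13 for MALAT1, -0.31 to 0.18 for NEAT1, -0.49 to 0.64 for RN7SL1, -0.65 to 0.61 for RN7SL2, -0.45 to 0.37 for RPPH1 and -0.0058 to 0.16 for the log2 ratio of RN7SL1 over RN7SL2. For HER2R against CEAR it gave -0.39 to 0.72 for MALAT1, -0.41 to 0.22 for RN7SK, -0.0052 to 0.17 for RNA45S5 and -0.15 to 0.45 for RPPH1. Between numbers it gave -0.10 to 0.43 for NEAT1 and -0.20 to 0.31 for RN7SK. The cause was not tested. The edgeR legacy method and a prior that does not follow abundance were added after seeing the data and gave 0 called rows in every comparison.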

Other observations

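RNU1-1, a U1 spliceosomal RNA gene, had 1021 counts in HER2R library 1 and 779 in CEAR library 1, and 0 in both MKN45 libraries and in every library of number 2. It was at least 558-fold lower in number 2 than in number 1 (floor of 3 counts over the group), although MKN45 library 1 is of number 1 too. U1 is made from several near-identical gene copies, so counts of a single copy are uncertain. SNORD3C, one of the U3 small nucleolar RNA copies, had 439 counts in CEAR library 2 and 2 to 30 in the 5 other libraries, and SNORD3B-1 was lower in number 2 (log2 difference -1.85, adjusted p = 0.0333, edgeR) at a mean of under 1 CPM, a call lost in 10 of 15 alternatives (log2 difference -7.75 to -0.79, adjusted p up to 0.781).

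Among the other long noncoding RNAs, MIR22HG, the host transcript of a microRNA, was higher in number 2 (15.2 ± 3.04 against 7.71 ± 1.26 CPM, SD, n = 3, adjusted p = 0.00810, edgeR). SNHG3 (42.3 ± 9.47 against 75.1 ± 21.1 CPM, adjusted p = 0.00282) and DANCR (45.0 ± 6.21 against 69.9 ± 17.6 CPM, adjusted p = 0.00968), both hosts of small nucleolar RNAs, were lower.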
